A study of Mus musculus with 6 samples.

Results

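Kinesins are motor proteins that use ATP to act on microtubules, and this account follows the genes that encode them in cortical neurons with and without Rp58. Members were the protein-coding genes whose GENCODE vM21 symbol is Kif or Kifc followed by a number and at most one of the letters a, b or c. The rule found 42 genes among the 34289 genes summed from the deposited transcripts, and used no measured value.

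In neurons most kinesins carry vesicles, mitochondria, receptors or RNA from the cell body along axons and dendrites, and others trim or stabilise microtubule ends. Another set of kinesins builds and moves the mitotic spindle, and is made mainly in dividing cells. A few work in cilia, in the transport of ciliary parts, in the control of ciliary length or in Hedgehog signalling.

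The libraries hold RNA of cortical postmitotic neurons taken from E14.5 mouse embryos. Controls carried both copies of Rp58 (RP58+/+, 3 libraries) and mutants carried none (RP58-/-, 3 libraries). Rp58, now called Zbtb18, encodes a zinc finger repressor of transcription. No label says how the neurons were isolated, how Rp58 was deleted, or whether the libraries are of different embryos, so p-values measure the spread between these libraries, which may be technical.

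Total estimated counts ran from 34645505 to 75892649 per library, and kinesin genes took 0.334% to 0.458% of the counts joined to genes. The libraries were of 2 types by their deposited effective lengths. Control 1, mutant 1 and mutant 2 had 1 fixed difference between length and effective length (fixed-length libraries). Control 2, control 3 and mutant 3 had differences estimated per library (estimated-length libraries). The types also differed in make-up. The highest transcript was at 486662 to 531107 TPM in the estimated-length libraries, against 17589 to 23552 TPM in the fixed-length ones. Nuclear protein-coding genes held 40.1% to 44.8% of the TPM joined to genes in the estimated-length libraries and 85.2% to 88.3% in the fixed-length ones. Levels are normalized counts scaled by library size (CPM), values of single libraries are in the order of replicates 1, 2 and 3, and genotypes were compared in an edgeR quasi-likelihood fit with a term for library type, with Benjamini-Hochberg adjustment over 16985 genes. A gene with an adjusted p under 0.05 is said to have risen or fallen. Zbtb18, the deleted gene, was at 1902, 1587 and 1697 CPM in the control libraries, against 46.7, 45.7 and 538 CPM in the mutant ones. It fell by 3.48 ± 0.81 (SE) on the log2 scale (adjusted p = 0.0337), but mutant 3 kept 32.8% of the level of its own library type against 2.43% in mutants 1 and 2. The most alike pair of libraries, controls 2 and 3, differed by more than sampling noise (chi-square of 18.1 per degree of freedom), so each library was counted. The pan-neuronal gene Tubb3 was at 1626 CPM or more in every library. Markers of other mature cell types were low, with summed levels of at most 2.57 CPM for microglia and 4.54 CPM for endothelial and mural cells. Interneuron markers summed to at most 3.44 CPM (2 of 6 tested rose, where 7.92% of all genes did) and erythroid ones to at most 20.4 CPM. Oligodendrocyte lineage markers, mostly Mbp, summed to 27.5 to 34.2 CPM over controls and 39.9 to 57.8 CPM over mutants. Of the 3 tested, 2 rose, against the same 7.92% of all genes, and Sox10 had no count in any library.

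Among the 42 kinesin genes, those of long-range transport were the most abundant. Levels between genes are given per length, as deposited TPM summed to genes and rescaled to the same sum over nuclear protein-coding genes in each library. Kif5c, a heavy chain of kinesin-1, was at 175 in control 1, 198 and 220 in mutants 1 and 2, 488 and 464 in controls 2 and 3, and 542 in mutant 3. Kif1b, a kinesin-3 of mitochondria and synaptic vesicle precursors, and Kif21b, which restrains microtubule growth, followed with means of 229 each over all libraries. They could not be ordered, since Kif1b ran from 98.8 to 389 and Kif21b from 136 to 312. By the mean, Kif1a, the main motor of synaptic vesicle precursors, followed with 148 (range 71.1 to 230) and Kif5b with 116 (range 49.7 to 190). That order did not hold in every library, since Kif26a was above Kif1a in controls 2 and 3, and Kif5a was above Kif1a in control 1 and mutants 1 and 2.

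The first 8 genes of this order held between 81.6% and 86.6% of the summed kinesin level of a library. They were Kif5c, Kif1b, Kif21b, Kif1a, Kif5b, Kif26a, Kif5a and Kif3c, and 23 of the 42 genes stayed under a mean of 5. Per-length levels of most of these genes were higher in the estimated-length libraries of both genotypes. In the fit on counts, 17 of 40 kinesin genes differed between library types (14 higher in the estimated-length libraries), where 70.2% of all genes did.

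**Figure D1:**
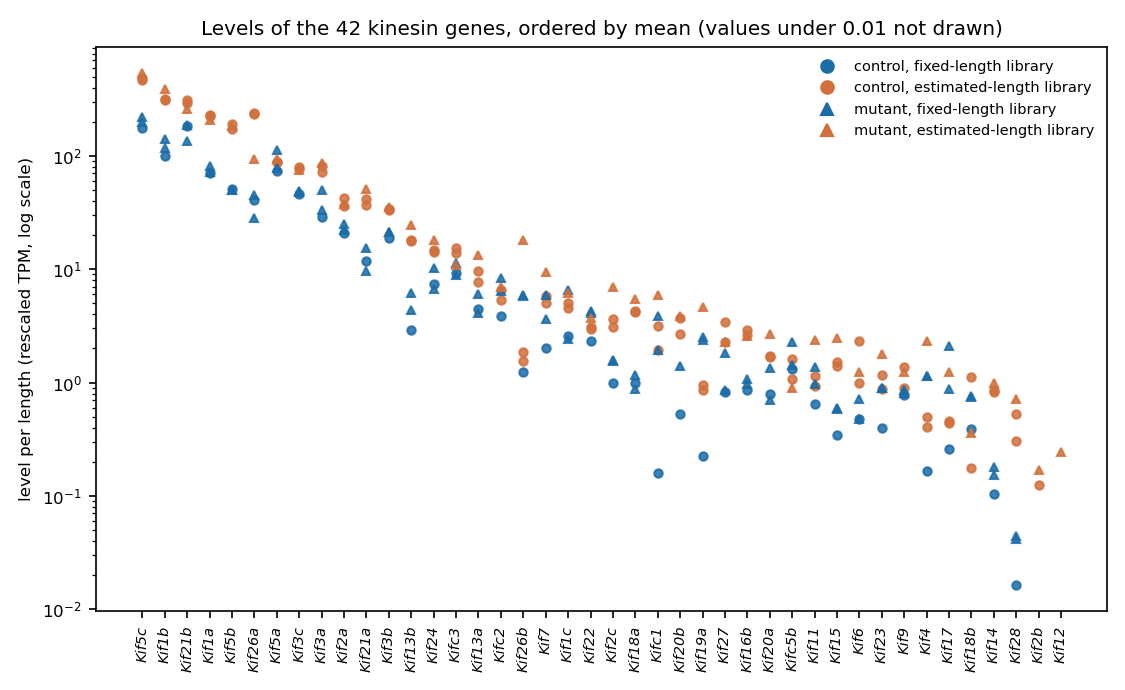
Level per length (deposited TPM summed to genes and rescaled to nuclear protein-coding genes, log axis) of the 42 kinesin genes in each library, ordered by their mean. Circles are controls and triangles are mutants, and colours give the library type. Kif5c has the highest mean, with libraries at 175 to 542, though Kif21b is above it in control 1, and Kif12 has the lowest mean and is seen in mutant 3 alone.

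In the mutants 5 kinesin genes rose and none fell among the 40 that could be tested, which is 12.5% where 14.9% of all genes passed (7.92% rose and 7.01% fell). The share of kinesin genes called was thus close to that of all genes. Kif26b, Kif4, Kif19a, Kif17 and Kif7 were the genes that rose, all of them far less abundant than the main transport motors. At an unadjusted p under 0.05 there were 15 genes, 13 with higher fitted levels in mutants and 2 with lower ones (Kif26a and Kif21b), where 29.7% of all genes were. DESeq2 called 11 that rose and 2 that fell, where it called 23.8% of all genes. Without the term for library type 1 kinesin gene passed, Kif26b, where 2.36% of all genes did (adjusted p there 0.0593 for Kif4, 0.170 for Kif19a, 0.169 for Kif17 and 0.558 for Kif7). Groups of 3 libraries did not overlap for 10 kinesin genes, 9 with mutants above and 1 with mutants below (25.0%, against 15.4% of all genes). Without mutant 3, which kept part of its Zbtb18 RNA, 4 kinesin genes rose (Kif26b, Kif4, Kif19a and Kifc1), where 8.96% of all genes passed. Kifc1 had only 2 counts in control 1. The median log2 fold change was 0.20 over kinesin genes and -0.00081 over all genes. Kif28, of no assigned role, had a log2 fold change of 0.66 (adjusted p = 0.273). Kif12 and Kif2b were under the filter on low counts, with at most 0.040 and 0.121 CPM in any library. In bulk RNA a change in the number of cells of a kind and a change in RNA per cell cannot be told apart.

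**Figure D2:**
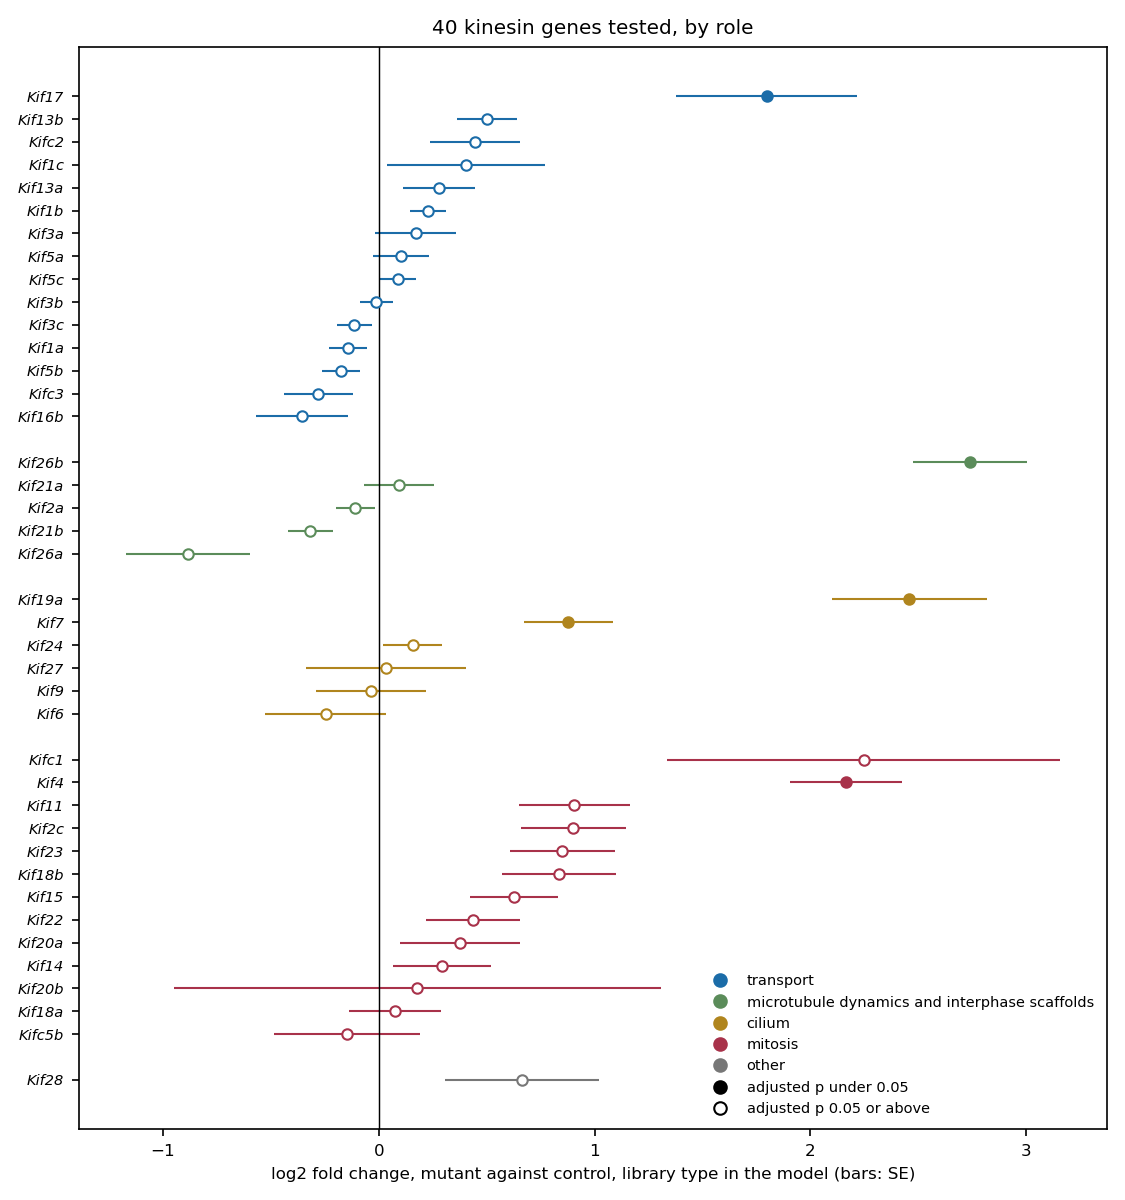
Log2 fold change of mutants against controls with its SE for the 40 kinesin genes tested, grouped by role. Filled points passed adjusted p 0.05. Transport motors other than Kif17 lie within about 0.50 of 0, and Kif26b lies highest at 2.74. To the right of 0 lie 12 of 13 mitotic genes, where 49.9% of all genes tested had positive values.

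Kif26b and its relative Kif26a are large kinesin-like scaffold proteins without motor activity, and Kif26b alone of the pair passed. It acts in Wnt5a signalling and cell polarity. Its level was 4.67, 4.84 and 3.86 CPM in the control libraries, against 22.0, 19.2 and 42.9 CPM in the mutant ones. Every mutant library was above every control, and mutant 3 was the highest. Its log2 fold change was 2.74 ± 0.26 (SE), a 6.67-fold rise with adjusted p = 0.000963 in the edgeR fit, and it stayed called whichever of the 6 libraries was left out (adjusted p 0.000616 to 0.00744). Within the fixed-length libraries the log2 fold change was 2.13 and within the estimated-length libraries 3.28 (adjusted p = 0.00392 and 0.000559).

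The 2 annotated Kif26b transcripts that were tested divided its counts by library type more than by genotype. Kif26b-202, the longer model of 7279 bases, held 17.0%, 40.2% and 34.6% of the counts in control 1, mutant 1 and mutant 2, and 88.3%, 96.9% and 91.5% in control 2, control 3 and mutant 3. Kif26b-201, of 6216 bases, held the rest. Kif26b-202 rose by 3.29 on the log2 scale (adjusted p = 0.00655), and Kif26b-201 had a log2 fold change of 2.50 (adjusted p = 0.186). Kif26b-202 was the only one of 98 kinesin transcripts tested that passed, where 1.74% of all transcripts did, and it did not pass without mutant 3 or without any one of the controls.

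Kif26a, which restrains growth factor signalling in developing neurons, ranked between 4 and 9 of the family per length, depending on the library. It was at 167, 595 and 556 CPM in the control libraries, against 109, 160 and 210 CPM in the mutant ones. The groups overlapped, because control 1 lay between mutants 2 and 3, but within each library type every mutant was under every control. The log2 fold change was -0.89 ± 0.29 (SE) and did not pass (adjusted p = 0.0911). It was -1.45 within the estimated-length libraries, where it passed (adjusted p = 0.0230), and -0.32 within the fixed-length libraries, where it did not (adjusted p = 0.454). The difference between these effects did not pass either (adjusted p = 0.505, unadjusted p = 0.0160). DESeq2 called Kif26a lower (adjusted p = 0.00266), as did edgeR without the filter on low counts (0.00282), without control 1 (0.0284) and without mutant 2 (0.0163). It was not called without any one of the other 4 libraries (0.180 to 0.460), and without mutant 3 its log2 fold change was -0.32.

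**Figure D3:**
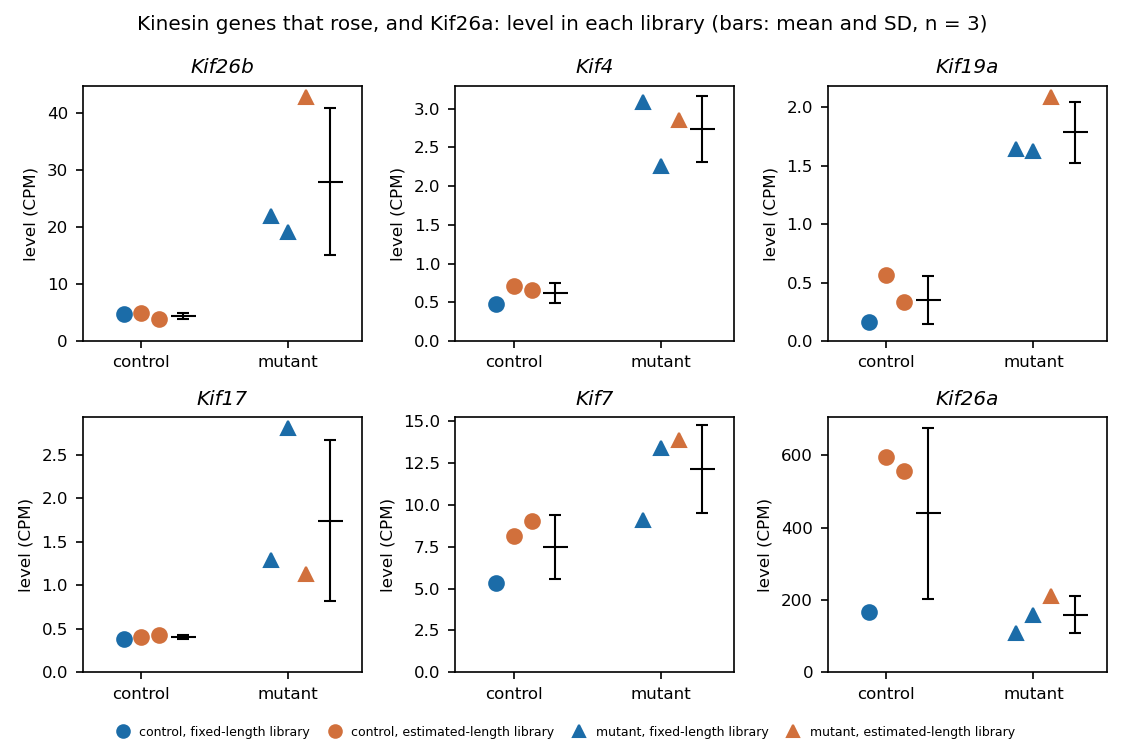
CPM in each library of the 5 kinesin genes that rose and of Kif26a, with the mean and SD of 3 libraries beside the points. Circles are controls, triangles are mutants and colours give the library type. Mutants lie above all controls for the 5 genes, and for Kif26a control 1, at 167, lies among the mutants.

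The 250 bases before the RefSeq start of Kif26b are shown because it was called with and without the term for library type. In this stretch of GRCm38.p6, chr1:178528875-178529124 on the plus strand, capitals mark the letters ATTGG, which reads CCAAT on the other strand, and the letters TTTGAA.
Kif26b: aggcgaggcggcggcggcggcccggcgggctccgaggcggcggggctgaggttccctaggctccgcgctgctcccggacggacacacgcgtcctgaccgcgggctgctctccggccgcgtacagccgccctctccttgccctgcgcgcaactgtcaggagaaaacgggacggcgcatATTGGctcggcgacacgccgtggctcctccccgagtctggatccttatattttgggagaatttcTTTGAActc
The letters ACATCTG, the core of the sequence to which RP58 binds, were searched on both strands of 300 bases around each start and were not in this window. They were in 4.43% of all 32851 RefSeq promoters and in 2.65% of those of tested genes. Of the 33 kinesin genes with a promoter in the RefSeq table, 2 held them, Kif3a and Kif2b (6.06%). Counted per gene, the share was 5.10% over all genes and 3.25% over tested genes. Kif3a did not pass, and Kif2b, under the filter on low counts, was not tested. Kif19a, which rose, had no promoter to search.

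The heavy chains of kinesin-1 drive fast axonal transport, and none of them passed the test. Kif5a, a neuron-specific heavy chain, was at 260, 189 and 183 CPM in the control libraries, against 262, 342 and 185 CPM in the mutant ones. Kif5b, the heavy chain of all tissues, was at 179, 245 and 232 CPM in the control libraries, against 165, 145 and 215 CPM in the mutant ones. Kif5c was at 710, 903 and 818 CPM in the control libraries, against 752, 745 and 922 CPM in the mutant ones. The genotypes overlapped for each of them, and Kif5a in mutant 2 stood above all other libraries. The 95% interval of the log2 fold change was -0.20 to 0.41 for Kif5a, -0.39 to 0.039 for Kif5b and -0.11 to 0.29 for Kif5c. A change of either direction inside these bounds is not shown to be absent. The summed level of the 3 heavy chains was 1.05 times that of control 1 in mutants 1 and 2, and 1.03 times that of controls 2 and 3 in mutant 3.

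Kinesin-2 moves cargo in axons and builds cilia, as a trimer of KIF3A with KIF3B or KIF3C and an associated protein. Kif3a was at 41.6, 70.1 and 61.8 CPM in the control libraries, against 46.2, 66.7 and 61.8 CPM in the mutant ones, with a log2 fold change of 0.17 ± 0.19 (SE). Kif3b was at 62.1, 67.5 and 66.6 CPM in the control libraries, against 66.3, 60.7 and 64.5 CPM in the mutant ones, and its log2 fold change of -0.013 had a 95% interval of -0.20 to 0.17. Neither gene separated the genotypes. Kif3c was at 187, 189 and 189 CPM in the control libraries, against 185, 171 and 170 CPM in the mutant ones. All its mutant libraries were under all controls, by a small amount (log2 fold change -0.11, adjusted p = 0.409).

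Kif17, the homodimeric kinesin-2 that carries NMDA receptor subunits in dendrites, rose from a very low level. It had 0.382, 0.402 and 0.426 CPM in the control libraries (12, 27 and 18 counts), against 1.29, 2.81 and 1.13 CPM in the mutant ones (67, 150 and 56 counts). All mutants were above all controls, and mutant 2 was the highest. The log2 fold change was 1.80 ± 0.42 (SE, adjusted p = 0.0331 in the edgeR fit), and the call was lost without mutant 3 or without any one of the controls (adjusted p 0.0822 to 0.213).

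Of the 6 kinesin-3 motors, which carry vesicles, endosomes and mitochondria, none passed. Kif1a was at 347, 630 and 616 CPM in the control libraries, against 334, 341 and 527 CPM in the mutant ones. The log2 fold change of Kif1a was -0.14 with a 95% interval of -0.35 to 0.067, and Kif1b had 0.23 with 0.026 to 0.43 (adjusted p = 0.127). Kif13b, a motor of signalling and membrane cargo, had 0.50 ± 0.14 (SE, adjusted p = 0.0611), and Kif13a, Kif16b and Kif1c lay between -0.36 and 0.40. DESeq2 called Kif1b and Kif13b (adjusted p = 0.0372 and 0.0162). The annotated models of Kif1b divided its counts by library type. Kif1b-202, a model of 5992 bases, held no counts in the fixed-length libraries and 20.1%, 20.2% and 21.4% in control 2, control 3 and mutant 3, while Kif1b-203, of 10233 bases, held 68.2% to 88.7% in all 6.

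The minus-end directed kinesin-14 motors of interphase cells did not pass. Kifc2 had 6.78 ± 0.62 CPM over controls against 10.5 ± 3.02 CPM over mutants (SD, n = 3; edgeR adjusted p = 0.210), and Kifc3 had 16.4 ± 0.67 and 14.3 ± 2.83 CPM (adjusted p = 0.298). Among motors that act on microtubule ends, Kif2a, a depolymerase that prunes axon branches, was at 39.1, 35.7 and 40.01 CPM in the control libraries, against 39.5, 35.4 and 34.0 CPM in the mutant ones. Its log2 fold change was -0.11 with a 95% interval of -0.33 to 0.11. Kif21b had 902 ± 82.2 CPM over controls against 757 ± 96.5 CPM over mutants (log2 fold change -0.32 ± 0.10, SE) and missed the threshold in edgeR (adjusted p = 0.0944) while DESeq2 called it lower (0.0123). Its relative Kif21a had a log2 fold change of 0.094 (adjusted p = 0.752).

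Kinesins hold their cargo through light chains and adaptor proteins. Of 34 tested genes of a list of kinesin light chains and cargo adaptors, 3 rose and 3 fell, with a median log2 fold change of -0.025, where 14.9% of all genes passed. Sybu encodes syntabulin, which links KIF5 to vesicles and mitochondria in axons. It was at 32.9, 70.7 and 68.8 CPM in the control libraries, against 3.24, 3.40 and 3.83 CPM in the mutant ones, so that every mutant was far under every control (log2 fold change -3.72 ± 0.20, SE, adjusted p = 0.000101). Fez2, of a family of kinesin-1 adaptors, fell by 0.92 on the log2 scale (adjusted p = 0.000939). Grip1, an adaptor of glutamate receptor cargo, fell by 0.71 (adjusted p = 0.00556). Hap1, a huntingtin-associated adaptor, rose from 3.58 ± 0.15 to 12.7 ± 3.13 CPM (SD, n = 3; edgeR adjusted p = 0.00186), and Clstn1, the calsyntenin that binds kinesin light chains, rose by 0.36 (adjusted p = 0.0349). Klc4, a light chain outside the rule for named genes and chosen after its values were seen, rose by 0.49 (adjusted p = 0.00977). Without the term for library type 1 gene of the list rose and 1 fell.

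The opposing motor, dynein with dynactin, moves cargo toward the cell body. Of its 26 tested genes, 1 rose and 3 fell, with a median log2 fold change of -0.063, where 14.9% of all genes passed, and none passed without the term for library type. Dync1i1, the intermediate chain enriched in neurons, was at 95.7, 61.8 and 60.6 CPM in the control libraries, against 25.0, 19.4 and 10.002 CPM in the mutant ones. All mutants were under all controls (log2 fold change -2.35 ± 0.16, SE, adjusted p = 0.000206). Dynlt3 and Dynlrb1, light chains, fell by 0.68 and 0.41 on the log2 scale, and Bicd1, a cargo adaptor, rose by 0.76. The heavy chain Dync1h1 had 1297 ± 577 CPM over controls against 1284 ± 477 CPM over mutants (SD, n = 3; edgeR adjusted p = 0.124).

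Of 6 ciliary kinesin genes 2 rose, where 7.92% of all genes did. Kif19a, a depolymerase that limits the length of motile cilia, was at 0.159, 0.566 and 0.332 CPM in the control libraries (5, 38 and 14 counts), against 1.64, 1.63 and 2.09 CPM in the mutant ones (85, 87 and 103 counts). Every mutant was above every control, and the log2 fold change was 2.46 ± 0.36 (SE, adjusted p = 0.00545 in the edgeR fit), with 3.07 within the fixed-length and 2.09 within the estimated-length libraries. The call held whichever library was left out (adjusted p 0.0101 to 0.0317). Kif7, which acts at the tip of primary cilia in Hedgehog signalling, was at 5.31, 8.11 and 9.002 CPM in the control libraries, against 9.11, 13.4 and 13.8 CPM in the mutant ones. The lowest mutant was just above the highest control. Its log2 fold change was 0.88 ± 0.21 (SE, adjusted p = 0.0339), and the call was lost without mutant 3 or without any one of the controls (adjusted p 0.0756 to 0.218).

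The other ciliary members, Kif24, Kif27, Kif6 and Kif9, had log2 fold changes between -0.25 and 0.16 and did not pass. Markers of choroid plexus and ependyma, where motile cilia are found, were low in both genotypes. Their 8 genes summed to between 5.09 and 9.07 CPM in controls and between 6.62 and 8.50 CPM in mutants. Of the 4 tested 1 rose, where 7.92% of all genes did. It was Kl, from at most 0.640 CPM (edgeR adjusted p = 0.0402). Foxj1, the regulator of motile cilia, was at 2.83, 1.94 and 2.30 CPM in the control libraries, against 3.05, 3.87 and 2.23 CPM in the mutant ones. Ttr had no count in control 1 or in mutants 1 and 2. Foxj1 and Ttr stand here as defining markers, outside the rule for named genes. The part of such cells in the level of Kif19a was not tested.

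Mitotic kinesins were low in both genotypes, and 1 of 13 tested rose, where 7.92% of all genes did. Kif4, a chromosome-bound kinesin that sets the length of the central spindle, was at 0.477, 0.715 and 0.663 CPM in the control libraries (15, 48 and 28 counts), against 3.09, 2.26 and 2.85 CPM in the mutant ones (160, 121 and 141 counts). All mutants were far above all controls. The log2 fold change of Kif4 was 2.16 ± 0.26 (SE, adjusted p = 0.00243 in the edgeR fit), with 2.39 within the fixed-length and 1.99 within the estimated-length libraries, and it stayed called whichever library was left out (adjusted p 0.00330 to 0.0231).

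None of the other 12 passed, though 11 of them had positive values, where 49.9% of all genes did. The median log2 fold change over the 13 genes was 0.63. Kif11, the motor that pushes spindle poles apart, was at 1.81, 1.59 and 1.90 CPM in the control libraries, against 3.65, 2.34 and 3.75 CPM in the mutant ones. Its groups did not overlap, but it missed the threshold (log2 fold change 0.91 ± 0.26, SE, adjusted p = 0.0621). Kif2c, a depolymerase at kinetochores, and Kif23, a motor of the central spindle in cytokinesis, also had all mutants above all controls (log2 fold changes 0.90 and 0.85, adjusted p = 0.0553 and 0.0647). DESeq2 called these 3 (adjusted p 0.0267 to 0.0454), and also Kifc1, described below. Kif15, Kif18b, Kif22, Kif20a, Kif14, Kif20b and Kif18a had log2 fold changes between 0.076 and 0.83 and did not pass. Kif20b was listed at 0 counts in mutant 1 alone, where 3 counts would be 0.0579 CPM, and at 1.72 to 7.15 CPM in the other 5 libraries.

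Kifc1, a spindle kinesin-14, has a near-identical copy in Kifc5b, between which shared reads are divided. Kifc1 had 2 counts in control 1 and 82 to 232 in mutants 1, 2 and 3, and a log2 fold change of 2.25 ± 0.91 (SE, edgeR adjusted p = 0.158). DESeq2 called Kifc1 higher (adjusted p = 0.00486), as did edgeR without the filter on low counts. Kifc5b had 61 counts in control 1 and a log2 fold change of -0.15. With both summed, an alternative chosen after the data were seen, the level was 2.003, 2.34 and 3.08 CPM in the control libraries, against 6.45, 4.40 and 3.68 CPM in the mutant ones. The summed groups did not overlap, and the log2 fold change was 0.91 ± 0.32 (SE, adjusted p = 0.110).

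Partners of the mitotic kinesins had positive changes as well, in a list chosen with earlier results of these data known. Of its 21 genes 7 rose and none fell, where 14.9% of all genes passed, with a median log2 fold change of 0.84. Mki67, a marker of cycling cells, rose from 3.54 ± 0.94 to 6.92 ± 2.59 CPM (SD, n = 3; edgeR adjusted p = 0.00374), and Cit, a kinase of cytokinesis, from 1.51 ± 0.655 to 2.41 ± 1.18 CPM (adjusted p = 0.0257). Ccnb1, the mitotic cyclin, and Top2a, a topoisomerase of dividing cells, also rose (adjusted p = 0.0291 and 0.0338). Racgap1, the partner of KIF23 and the most abundant gene of the list, had 15.9 ± 4.72 and 18.9 ± 5.38 CPM (adjusted p = 0.995). The 21 genes summed to 61.0 to 73.6 CPM in controls and 94.5 to 113 CPM in mutants, and the 14 mitotic kinesins to 16.5 to 29.5 and 28.1 to 40.3 CPM. None of these calls in the partner list passed without the term for library type (6 genes at an unadjusted p under 0.05).

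Markers of progenitor cells are given beside the mitotic genes, against 7.92% of all genes that rose and 7.01% that fell. These lists were chosen with earlier results of these data known, so their counts are a description and not an independent test. Of 8 genes in a list for intermediate progenitors 5 rose and none fell, and their sum was 317 to 503 CPM over controls and 671 to 1077 CPM over mutants. Mfng, a modifier of Notch, rose from 12.8 ± 10.4 to 152 ± 70.5 CPM (SD, n = 3; edgeR adjusted p = 6.02e-05). Neurog2, a transcription factor of neurogenesis, rose from 21.7 ± 5.27 to 91.6 ± 8.82 CPM (SD, n = 3; edgeR adjusted p = 0.000123), and Eomes, which defines these cells, from 24.9 ± 22.3 to 117 ± 53.8 CPM (adjusted p = 0.00485). The most abundant gene of the list was Elavl4, which neurons also express, so the sum is not a measure of progenitors alone. Of 12 radial glia genes 5 rose and 4 fell, and their sum was 498 to 731 CPM over controls and 262 to 311 CPM over mutants. Hes1, a Notch target, was at 0.223, 0.179 and 0.261 CPM in the control libraries and rose to 6.33, 6.86 and 8.40 CPM (adjusted p = 7.11e-05), and Pax6 rose by 1.85 on the log2 scale. Ptprz1, the most abundant gene of this list, fell by 2.05. No marker of either list was at 0 in any library. Among 12 genes of postmitotic neurons 6 fell and 1 rose. Without the term for library type 1 intermediate progenitor gene, 4 radial glia genes and 0 postmitotic neuron genes passed (5, 7 and 3 at an unadjusted p under 0.05 in edgeR). The part of progenitor cells in the mitotic kinesin levels was not tested.

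The mitotic kinesin promoters shared a sequence feature that the choice of genes did not use. The letters TTTGAA are those of the CHR element, through which many mitotic genes are kept silent outside division. Searched on both strands of 250 bases before to 50 after each RefSeq start, they were in 11 of 13 mitotic kinesin promoters (84.6%), against 17.9% of all RefSeq promoters, 12.6% of promoters of tested genes and 12.5% of the 24 promoters of other kinesin genes. The 13 promoters include that of the untested Kif2b and lack one for Kif20a, and the near-identical copies Kifc1 and Kifc5b are counted separately. In 9 of the 13 the match began within 30 bases of the start, a distance chosen after the matches were seen, where 3.19% of all promoters had one. The following stretches of 30 bases around the match, from RefSeq promoters of GRCm38.p6 and written on the strand of the gene, show 6 of these matches in capitals, with TTCAAA where the match is on the opposite strand.
Kif4 (chrX:100626072-100626101, plus strand): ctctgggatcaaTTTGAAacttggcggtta
Kif11 (chr19:37376351-37376380, plus strand): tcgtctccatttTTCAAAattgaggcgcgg
Kif15 (chr9:122951050-122951079, plus strand): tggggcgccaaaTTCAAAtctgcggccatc
Kif20b (chr19:34922353-34922382, plus strand): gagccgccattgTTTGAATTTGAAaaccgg
Kif23 (chr9:61946780-61946809, minus strand): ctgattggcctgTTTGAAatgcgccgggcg
Kifc1 (chr17:33890615-33890644, minus strand): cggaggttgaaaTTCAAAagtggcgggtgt
CCAAT, often found near such elements, was in 9 of the 13 mitotic promoters (69.2%) and in 37.4% of all. Kif4, which rose, and Kif11 and Kif15, which missed the threshold, all carried TTTGAA. So did Kif14 (log2 fold change 0.29 ± 0.23, SE), Kif20b (0.18 ± 1.13) and Kifc5b (-0.15 ± 0.34), while Kif18a did not (0.076 ± 0.21). The value of Kif20b is very uncertain, with 0 counts in mutant 1, and Kifc5b shares reads with Kifc1. A match in these letters is a description of the window.

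The 2 library types gave effects of the same sign for 32 of the 40 kinesin genes, and for 11702 of all 16985 genes. Within the fixed-length libraries 4 kinesin genes rose and none fell (Kif19a, Kif26b, Kif4 and Kifc1), where 9.46% of all genes passed. Within the estimated-length libraries 3 rose (Kif19a, Kif26b and Kif4) and 1 fell (Kif26a), where 7.92% did. Each type holds 1 genotype with a single library, so the spread was pooled over both. The single fixed-length control had 2 counts of Kifc1 and 61 of its near-identical copy Kifc5b. No kinesin gene had a difference between the types that passed (3 at an unadjusted p under 0.05, and 0.153% of all genes passed). Without the filter on low counts, Kif26a and Kifc1 passed that test of the difference, where 309 genes did in all, against 26 with the filter.

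**Figure D4:**
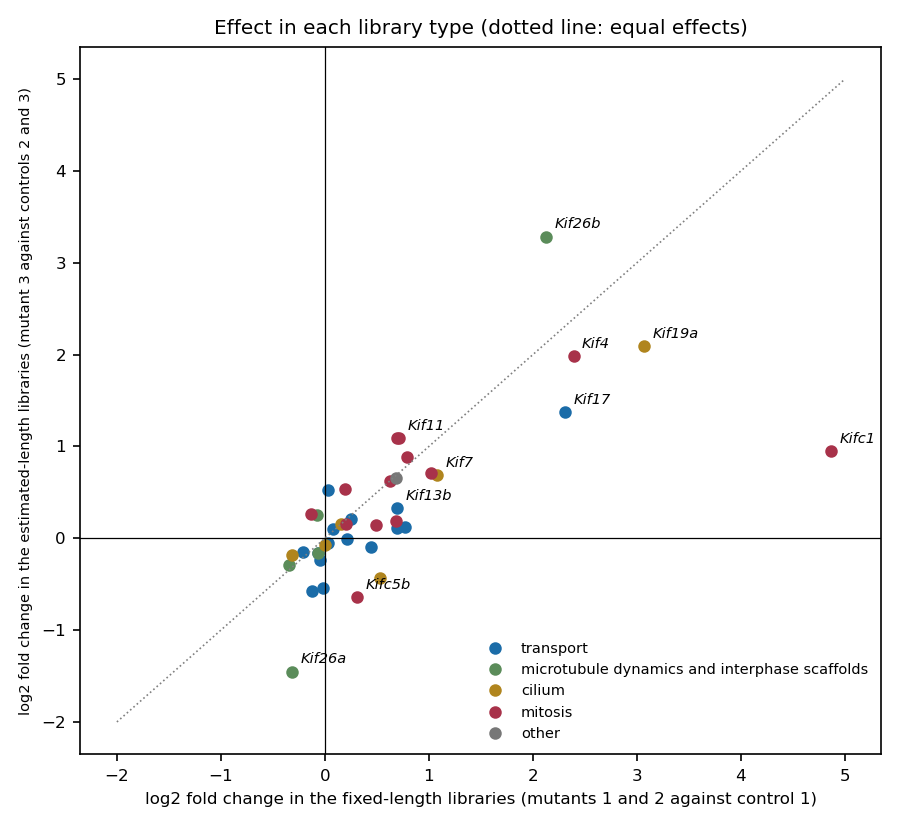
Log2 fold change of mutants against controls within the fixed-length libraries (horizontal) and within the estimated-length libraries (vertical) for the 40 kinesin genes tested, coloured by role, with a dotted line of equal effects. Kif26b, Kif4 and Kif19a lie high on both axes, Kifc1, with 2 counts in control 1, lies far right and Kif26a lies lowest at -1.45.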

How the data were processed

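Total RNA of 6 libraries was sequenced with a stranded kit, per the labels. Tools named in the submitters' processing notes are FastQC and kallisto, with mm9 as the build. Each deposited table gives estimated counts per transcript as the authors' kallisto run made them, TPM values that the authors deposited scaled by effective length and total, and lengths. Of 97251 transcripts, 84637 (87.0%) joined to GENCODE vM21, used for names. The rest took 6.85% to 8.58% of counts. Estimated counts were summed to genes, rounded, filtered with filterByExpr, TMM-normalized and tested with edgeR 4.0.16 (R 4.3.3, prior count 2). DESeq2 1.42.0 was an alternative.

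Members, roles and gene lists were chosen with earlier results of these data known. A library type term was put in the model because the types cross the genotypes unevenly. It lowered the common coefficient of variation from 0.701 to 0.186. Kinesins given library by library were every called member and 10 fixed by name. The other members are given by summary values, and the counts of Kif20b, Kifc1 and Kifc5b were added after their values were seen. Also named were, of each list, up to 4 called genes with the smallest p and the most abundant one. The SE of an edgeR log2 fold change is its absolute value divided by the square root of the F statistic. Intervals come from this SE. The prior count shrinks the log2 fold change and not F, so the SE is approximate at low counts. kallisto divides reads of near-identical genes, and no strand setting of its run is given, so reads of overlapping antisense genes cannot be told apart. The genes are not placed by coordinates, as the builds differ. RefSeq promoters are of GRCm38.p6. Counting floors cover counting error only. The scripts were tested on simulated data.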

Additional observations from a re-analysis of the deposited data

How the results depend on the processing

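Kif26b, Kif4 and Kif19a rose in every comparison over both library types that had the type term, and Kif26b alone passed without that term. Without the term 400 genes passed in all and 1 kinesin gene rose, and the lists of partners had 2 calls (adaptors), 0 (dynein, 1 at an unadjusted p under 0.05) and 0 (mitotic partners, 6). The calls without the term were 0 for postmitotic neurons, 4 for radial glia, 1 for intermediate progenitors and 0 each for interneurons, choroid plexus and ependyma, endothelial and mural cells and the oligodendrocyte lineage (3, 7, 5, 2, 0, 0 and 2 at an unadjusted p under 0.05). No kinesin transcript passed there in edgeR (0, with 4 at an unadjusted p under 0.05). DESeq2 called 4039 genes, with 11 kinesin genes that rose and 2 that fell. Without the filter on low counts 3178 of 28791 genes passed, among them 9 kinesin genes that rose and 1 that fell. Within the fixed-length libraries 7 kinesin genes then passed among 2505 genes in all, and 2 among 309 in the difference between types. DESeq2 size factors in edgeR left the same 5 kinesin genes called, and so did summing near-identical copies. With 1 library left out, 1294 to 3034 genes passed, 3 to 8 kinesin genes rose, 0 to 2 fell and 0 to 1 transcripts passed. The number that rose was 8 without mutant 2 and 3 without any one control, and without control 1 Kif26a fell. Within types, such fits gave 8 to 12 calls among fixed-length libraries (12 without mutant 1, 8 without mutant 2) and 1 among estimated-length libraries without control 2 or control 3 (Kif26b, with Kif4, Kif19a and Kif26a lost), the lone library being assumed to vary like the others. These fits within types left each genotype 1 library. Those among fixed-length libraries called more genes of all kinds than with every library kept, and those among estimated-length libraries called fewer. The kinesin calls moved with these totals and are not read as a result of kinesins alone. Signs changed for values near 0 only: Kif5c to -0.0073 without the term, Kif3a to -0.073 without control 1 (up to 0.44 with another library left out), and Kif3b to 0.011 without mutant 2 and 0.031 without mutant 3 (down to -0.045). The cause was not tested. No paired analysis was possible because the labels give libraries no shared replicate numbers. Mitotic, Kif17 and Kif19a values rest on as few as 2 to 15 counts in control 1.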
